A study of Mus musculus with 11 samples.

Results

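The libraries described here are the first 6 of the 11 in a series on the hippocampus of mice whose mothers were given particulate matter (PM) by the nose while pregnant. They are vehicle replicates 1 to 3 and PM replicates 1 to 3, chosen by their sample titles, and all gene rows of their count files were used. The title of the series speaks of fewer NMDA receptors in the offspring. Dams of the PM group received 200 µg per kg at 3 times in pregnancy, days 9, 12 and 15, and dams of the vehicle group received normal saline. Offspring were born on day 21 and hippocampi were taken at 14 to 18 weeks of age. No genotype, strain or sex is stated in the labels, and all 6 libraries share the tissue, the kit and the sequencing instrument given there. Whether each library of a group is an animal or litter of its own is not in the labels, and the p-values below then measure the spread between these libraries, which may be technical. The remaining 5 libraries of the series, vehicle replicates 4 and 5 and PM replicates 4 to 6, form a second set with its own vehicle libraries and were used only to ask which values differed between the sets.

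The NMDA receptor is a glutamate-gated calcium channel built from obligatory Grin1 subunits together with Grin2 or Grin3 subunits, and in the hippocampus it is known for its part in synaptic plasticity and memory. Its channel is held at the postsynaptic density by scaffold proteins of the Dlg, Dlgap and Shank families. Total RNA of a tissue also holds ribosomal, nuclear and other RNAs without a poly(A) tail, and how much of them a library carries depends on how the RNA was selected. The labels describe that selection in 2 ways, removal of ribosomal RNA in the protocol and poly(A) RNA in the molecule field.

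Gene counts came to 12496651, 11317516 and 11040339 in the vehicle libraries and to 17168712, 17763893 and 15467673 in the PM libraries. A count of 0 allows up to 3 counts, which is 0.178 to 0.254 CPM (counts per 1e+06 gene counts) across the 6 libraries, and such floors cover counting error only. CPM values below are scaled to TMM library sizes. Of all counts, 61.0%, 62.0% and 60.9% lay in no annotated feature in the vehicle libraries, against 20.8%, 18.8% and 21.4% in the PM libraries. The 45S ribosomal RNA precursor row, Rn45s, held 0.792%, 2.16% and 0.802% of gene counts in the vehicle libraries and 12.4%, 13.7% and 17.0% in the PM libraries. The groups did not overlap in either measure, nor in the share of Malat1, a nuclear long non-coding RNA, which took 2.21% ± 0.108 (SD, n = 3) of the gene counts of vehicle libraries and 0.112% ± 0.0449 of those of PM libraries. Exact two-sided permutation tests of 10 such measures each gave p = 0.1, adjusted p = 0.1, the smallest value that 3 against 3 libraries allow. The part of this difference in composition in the gene results below was not tested.

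**Figure D1:**
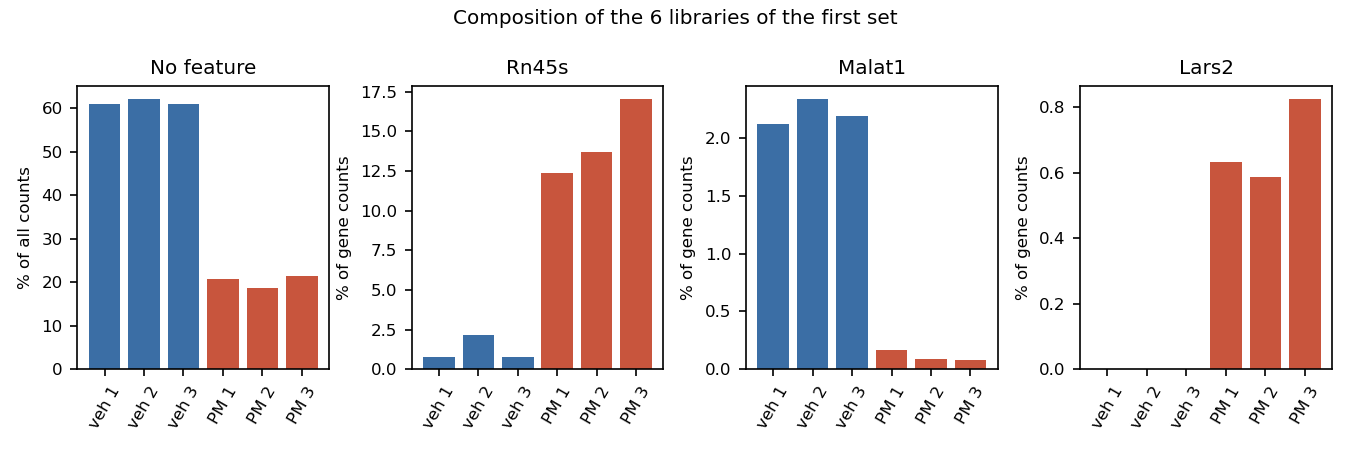
Share of counts, in percent, for 4 measures in the 3 vehicle libraries (blue) and the 3 PM libraries (red) of the first set, 1 bar per library, with each axis starting at 0. Counts in no feature lie near 61% in the vehicle libraries and near 20% in the PM libraries, Rn45s and Lars2 are high in PM libraries, and Malat1 is high in vehicle libraries.

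PM replicate 3 stood apart from the other libraries. The Y-linked genes Uty, Kdm5d and Eif2s3y had CPM values of 37.6 to 59.5 in the vehicle libraries and 12.97 to 28.9 in PM replicates 1 and 2, and were at 0 in PM replicate 3. Xist, the RNA that silences 1 X chromosome in females, was at 1.63, 2.78 and 2.96 CPM in the vehicle libraries and at 16.5, 0.356 and 208.5 CPM in the PM libraries. Ttr, the transthyretin gene that marks choroid plexus, was at 67.3, 226.5 and 27.6 CPM in the vehicle libraries and at 1138, 23.6 and 2419 CPM in the PM libraries. None of these genes passed the test between groups with all 6 libraries. Without PM replicate 3, the edgeR test called Uty (-1.598, adjusted p = 2.719e-07), Kdm5d (-1.28, adjusted p = 1.761e-06) and Eif2s3y (-0.84, adjusted p = 0.0002029) lower and Ddx3y, also Y-linked, higher (0.54, adjusted p = 0.000353). Among genes that passed, PM replicate 3 was the PM library farthest from the vehicle mean in 58.8%, PM replicate 2 in 22.7% and PM replicate 1 in 18.5%. Without PM replicate 3, 5127 genes were higher and 5160 lower, and 9865 of the calls made with it were kept in the same direction.

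PM and vehicle libraries differed over most of the measured genes. With edgeR's quasi-likelihood test and Benjamini-Hochberg adjustment at a threshold of 0.05, 5246 of 15031 tested genes (34.9%) were higher in the PM libraries, 5259 (35%) were lower, which together is 69.9%, and 4526 did not pass. Changes beyond 2-fold numbered 2235 higher and 2658 lower. The median log2 fold change of all tested genes was 0.007, and the middle part of the distribution, from the lower to the upper quartile, ran from -0.70 to 0.65. The 3 PM libraries lay outside the range of the 3 vehicle libraries for 73.9% of genes, above it for 36.7% and below it for 37.2%. These shares are the background against which each group of genes is read, so a list with about 35% of its members in each direction differs little from all genes.

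The direction followed gene type and transcript length. Of 14062 protein-coding genes tested, 5143 rose and 4648 fell, with a median log2 fold change of 0.05. Of 267 antisense transcripts, 14 rose and 199 fell (74.5%), with a median of -2.23. Long intergenic RNAs fell in 105 of 200 cases and rose in 28, and miRNA precursor rows fell in 46 of 55 cases and rose in 4. When genes were ordered by the length of their longest annotated transcript and divided into 5 groups of like size, the median log2 fold change went from 0.69 in the shortest group (median length 1377 bases) through 0.35, 0.12 and -0.16 to -0.79 in the longest (median length 6862.5 bases). In the shortest group 58.7% of genes rose, and in the longest 72.3% fell. A length and GC correction, which takes a smooth trend on transcript length and GC content out of each library before the edgeR test, was run as an alternative. After it 5730 genes were higher and 4321 lower, and 7964 calls were kept in the same direction. Corrected values are given below for named genes whose call it ended or whose direction it turned. Corrected counts are given for some of the lists it moved by more than 1.5 times, not for all.

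The obligatory and the main GluN2 subunits of the NMDA receptor had lower counts in every PM library. Grin2a, which encodes the GluN2A subunit, was at 209, 211 and 218.5 CPM in the vehicle libraries and at 27.6, 21.3 and 14.4 CPM in the PM libraries. Grin2b, which encodes GluN2B, was at 934, 910 and 960 CPM against 164.5, 105 and 98.5 CPM. For both genes the highest PM library, replicate 1, stayed far below the lowest vehicle library. Grin2a fell by 3.33 on the log2 scale (SE 0.187, edgeR adjusted p = 1.468e-07), from a mean of 212.9 ± 4.94 CPM to 21.1 ± 6.58 CPM (SD, n = 3 each). Grin2b fell by 2.93 (SE 0.176, edgeR adjusted p = 2.028e-07), from 935.1 ± 25.01 to 122.6 ± 36.4 CPM.

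Grin1, the subunit present in all NMDA receptors, was at 364, 346 and 389 CPM in the vehicle libraries and at 230, 182 and 136 CPM in the PM libraries. It fell by 1.00 (SE 0.158, edgeR adjusted p = 0.0001531), and the groups did not overlap. Grin3a, a subunit that lowers calcium flow, was at 81.1, 67.2 and 79.5 CPM against 42.7, 37.1 and 27.0 CPM, and fell by 1.09 (SE 0.153, edgeR adjusted p = 6.312e-05). Grin3b had few counts, 80 over the vehicle libraries and 43 over the PM libraries, and fell by 1.24 (SE 0.353, edgeR adjusted p = 0.008145). Grin2c moved the other way, from 34.0, 34.3 and 35.2 CPM to 58.1, 50.4 and 47.3 CPM, a rise of 0.59 (SE 0.107, edgeR adjusted p = 0.0004285). Grin2d did not pass the test (log2 fold change -0.15, SE 0.131, edgeR adjusted p = 0.3292), and its groups overlapped.

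Of the 7 subunits, 5 fell, 1 rose and 1 did not pass, with a median log2 fold change of -1.09 beside 0.007 for all tested genes. PM replicate 3 was the lowest PM library for Grin1, Grin2a, Grin2b and Grin3a. Without PM replicate 3 the calls were the same, with log2 fold changes of -3.11 for Grin2a, -2.79 for Grin2b, -0.82 for Grin1 and -0.92 for Grin3a. After length and GC correction, Grin2a was at -1.72, Grin2b at -0.92 and Grin1 at -1.17, while Grin3a no longer passed (-0.24, edgeR adjusted p = 0.06262). Grin1, Grin2b, Grin2c, Grin2d and Grin3b overlap annotated genes on the other strand, and since no source used here gives the strand setting of the counting, reads of such pairs cannot be told apart.

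**Figure D2:**
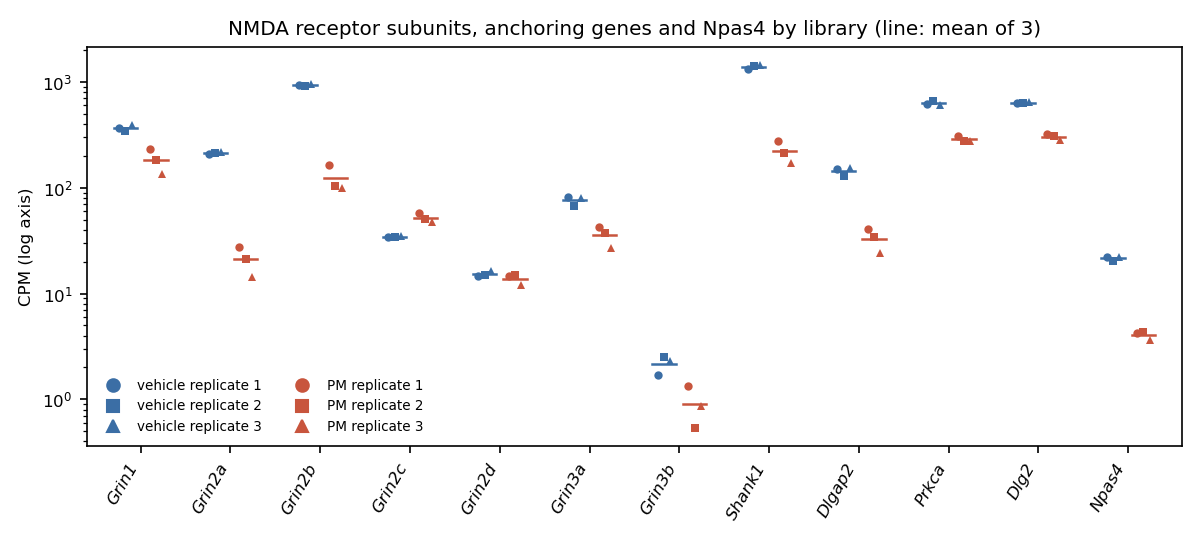
CPM (log axis) of the 7 NMDA receptor subunits, 4 anchoring or signalling genes and Npas4 in the 3 vehicle libraries (blue) and the 3 PM libraries (red), with 1 point per library, its shape giving the replicate, and a line at the mean of 3. The PM points lie below the vehicle points for Grin1, Grin2a, Grin2b, Grin3a, Grin3b and the 5 genes on the right, above them for Grin2c, and among them for Grin2d.

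Genes that anchor the receptor or carry its signal were divided. Of 30 measured, 17 fell, 9 rose and 4 did not pass, against 35% lower and 34.9% higher among all genes. The median was -0.55. Shank1, a master scaffold of the postsynaptic density, was at 1333, 1411 and 1440 CPM in the vehicle libraries and at 279, 211 and 172 CPM in the PM libraries and fell by 2.66 (SE 0.156, edgeR adjusted p = 1.852e-07). Dlgap2, which links PSD-95 to Shank proteins, went from 144.1 ± 14.1 to 33.1 ± 8.56 CPM (SD, n = 3) and fell by 2.12 on the log2 scale. Prkca, protein kinase C alpha, fell by 1.13 (vehicle 629.7 ± 30.9 and PM 286.7 ± 17.8 CPM), and Dlg2, which encodes PSD-93, fell by 1.06 (635.8 ± 2.91 and 304.2 ± 19.1 CPM). Dlg4, which encodes PSD-95 and was chosen after its values were seen, went the other way, from 534, 548 and 579 CPM to 1088, 1071 and 1090 CPM, a rise of 0.97 (SE 0.0849, edgeR adjusted p = 1.871e-06). After length and GC correction, the list had 12 members higher and 11 lower, and neither Prkca (-0.07) nor Dlg2 (-0.06) passed.

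The other glutamate receptors fell more often than they rose, against 35% lower and 34.9% higher among all genes. All 6 metabotropic glutamate receptors that passed were lower, of 7 measured, with a median of -1.16. Among them Grm7 fell by 1.25 (96.3 ± 7.20 to 40.4 ± 1.06 CPM), without overlap of the groups. Grm5, the group I receptor tied to the Shank and Homer scaffold, fell by 1.16 (597.7 ± 31.1 to 267.1 ± 29.8 CPM), and did not pass after length and GC correction (-0.10, edgeR adjusted p = 0.2398). Of 7 kainate receptor and Neto genes, 6 fell and none rose, with a median of -0.83. Neto1, an auxiliary protein of kainate receptors, fell by 1.85 and the kainate subunit Grik1 by 1.23. Grik2 fell by 1.5 (160.1 ± 5.48 to 56.4 ± 9.49 CPM), and after the correction it did not pass (-0.19, edgeR adjusted p = 0.07467).

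AMPA receptors, which carry most fast excitatory current, and their auxiliary proteins counted 8 lower, 3 higher and 2 not passed of 13. Their median was -0.42, and among all genes 35% were lower and 34.9% higher. The auxiliary genes Shisa6 and Shisa9 fell, with -2.07 and -1.11, and the subunit Gria4 fell by 0.91 (84.9 ± 6.53 to 45.3 ± 2.03 CPM). Cnih2, a chaperone of AMPA receptors, was at 182, 258 and 189 CPM in the vehicle libraries and at 487, 464 and 481 CPM in the PM libraries, a rise of 1.19 (SE 0.129, edgeR adjusted p = 9.097e-06). Gria1 and Gria2, the main subunits of hippocampal AMPA receptors and chosen after their values were seen, fell with log2 fold changes of -0.42 and -0.64. After length and GC correction, Gria1 was at 0.10 (edgeR adjusted p = 0.3308) and Gria2 turned to a rise of 0.80 (edgeR adjusted p = 1.165e-06).

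For GABA-A receptors, the main inhibitory channels, 6 of 12 subunits fell, 4 rose and 2 did not pass, with a median of -0.17. The shares of all genes were 35% lower and 34.9% higher. The corrected counts were 3 lower and 6 higher, with a median of 0.29. Gabrg3, the gamma 3 subunit, was at 23.4, 23.1 and 23.2 CPM in the vehicle libraries and at 2.41, 1.96 and 1.30 CPM in the PM libraries and fell by 3.6 (SE 0.184, edgeR adjusted p = 1.051e-07). Gabrd, the delta subunit of extrasynaptic receptors on granule cells, was at 6.68, 6.5 and 6.01 CPM against 23.1, 26.1 and 23.5 CPM, a rise of 1.92 (SE 0.127, edgeR adjusted p = 3.134e-07). Each of these 2 genes kept its groups apart. Gabrb1 fell by 1.46, and its value was 0.18 after length and GC correction.

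Presynaptic genes showed a like division. Of 18 vesicle and release genes 9 fell, 6 rose and 3 did not pass, against 35% lower and 34.9% higher among all genes. The median of the list was -0.44. Pclo (Piccolo), a very large protein of the active zone, fell by 2.45 (1423.7 ± 133 to 260.0 ± 37.6 CPM), and Rims1, which tethers vesicles to calcium channels, fell by 1.77. Stx1a, a SNARE of the plasma membrane, rose by 1.21 (41.0 ± 0.998 to 94.5 ± 10.5 CPM).

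Activity-regulated genes went both ways. Of 20 measured, 9 fell, 5 rose and 6 did not pass, against 35% lower and 34.9% higher among all genes. The median was -0.35. After length and GC correction, 10 fell and 2 rose. Npas4, a transcription factor induced by neuronal calcium entry, was at 22.3, 20.2 and 22.2 CPM in the vehicle libraries and at 4.22, 4.33 and 3.67 CPM in the PM libraries and fell by 2.39 (SE 0.137, edgeR adjusted p = 1.607e-07). Egr1, chosen after its values were seen, fell by 0.90. Nr4a2 and Nr4a3, orphan nuclear receptors of the same response, each fell by 0.87. Junb rose by 1.18, from 23.0 ± 3.24 to 52.0 ± 7.42 CPM. The number that rose was 2 or 3 when any one of vehicle replicates 1 to 3 or PM replicates 1 and 2 was left out, and 5 without PM replicate 3.

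Among neurotrophins and their receptors 3 of 7 fell and 1 rose (1 and 4 after length and GC correction). Over all genes, 35% fell and 34.9% rose without the correction. Ntrk3 (TrkC) fell by 1.31 (199.3 ± 15.5 to 80.1 ± 11.8 CPM) and Ntrk2 (TrkB) by 0.79 (792.5 ± 3.91 to 457.4 ± 24.1 CPM). Both turned to rises after length and GC correction, of 0.58 and 0.26.

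Genes linked to neurodevelopmental disorders, a list of chromatin regulators and synapse genes, fell almost throughout. Of 26 measured, 25 fell and none rose, against a background of 35% lower, with a median of -1.23. Ube3a, the ubiquitin ligase of Angelman syndrome, was at 338, 396 and 340 CPM in the vehicle libraries and at 76.6, 71.3 and 65.6 CPM in the PM libraries and fell by 2.33 (SE 0.108, edgeR adjusted p = 6.861e-08). The histone methyltransferases Kmt2c, Ash1l and Nsd1 fell, with log2 fold changes of -2.34, -1.89 and -1.49. Shank3, chosen after its values were seen, fell by 1.06. The 1 member that did not pass was Fmr1, at -0.09 (edgeR adjusted p = 0.4748). The list counted 14 lower and 5 higher after length and GC correction, with a median of -0.33, Nsd1 at -0.01 and Fmr1 at 0.31, a rise past the threshold. Ube3a and Kmt2c stayed lower after it, at -0.94 and -0.75.

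Genes of protein synthesis and energy supply rose together. All 42 cytosolic ribosomal protein genes tested were higher, with no overlap of the groups and a median of 2.18, against 34.9% higher among all genes. Rps14 was at 26.8, 36.4 and 30.1 CPM in the vehicle libraries and at 367, 530 and 629 CPM in the PM libraries, a rise of 4.03 (SE 0.200, edgeR adjusted p = 1.004e-07). Rpl9 rose by 3.31 (54.9 ± 3.02 to 546.3 ± 143 CPM), and Rpl3, a core protein of the large subunit, rose by 2.59. In each of these genes the PM libraries were ordered with replicate 1 lowest and replicate 3 highest. Of 43 listed genes, Rpl30 was not tested, and it had at most 3 counts in any library. Ribosomal protein genes have many processed pseudogenes, so their counts are uncertain as far as reads could be shared with these copies.

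Of 22 mitochondrial ribosomal proteins 17 rose, 1 fell and 4 did not pass, with a median of 1.17, and Mrpl9 rose by 2.07. All 25 nuclear genes of the respiratory chain rose, with a median of 1.32. Atp5e, the epsilon subunit of ATP synthase, was at 16.9, 15.7 and 15.5 CPM in the vehicle libraries and at 94.8, 121 and 166 CPM in the PM libraries, a rise of 2.99 (SE 0.187, edgeR adjusted p = 2.419e-07). Sdha, a catalytic subunit of complex II with a longer transcript, rose by 1.32 (174.9 ± 6.39 to 437.9 ± 20.7 CPM). All 15 glycolytic enzymes tested rose, with a median of 0.93, among them Pgk1 (1.98), Tpi1 (1.48) and Ldha (1.38). Proteasome subunits counted 22 higher and 2 not passed of 24, with a median of 1.49 and Psmb4 at 2.00. After length and GC correction, 41 of the 42 ribosomal protein genes tested, 24 of 25 respiratory chain genes and 22 of 24 proteasome genes were higher.

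Since the ribosomal protein genes moved together, the sequences at their starts are shown for 3 of them, on GRCm38 as RefSeq gives them. Each stretch runs from 70 bases before the annotated start to 20 bases after it, 5′ to 3′ on the strand of the gene. Capitals mark the letters CGGAAG or their reverse complement CTTCCG.
Rps18, chr17:33955646-33955735, minus strand: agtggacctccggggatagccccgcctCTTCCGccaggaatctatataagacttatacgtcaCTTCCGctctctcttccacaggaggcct
Rpl6, chr5:121204431-121204520, plus strand: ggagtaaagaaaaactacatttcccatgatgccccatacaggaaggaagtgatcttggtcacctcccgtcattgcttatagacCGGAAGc
Rpl11, chr4:136053374-136053463, minus strand: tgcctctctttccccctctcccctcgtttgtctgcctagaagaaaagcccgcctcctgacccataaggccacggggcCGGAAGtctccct
In windows of 250 bases before to 50 bases after the start, searched on both strands, CGGAAG was found in 19 of 33 windows of cytosolic ribosomal protein genes (57.6%), in 7 of 15 windows of respiratory chain genes (46.7%) and in 5537 of 32851 windows of all genes (16.9%). These windows covered 30 of the 43 listed ribosomal protein genes and 15 of the 25 respiratory chain genes. The match describes the sequence only, and a link to the rises was not tested. Rps18 rose by 2.87 (38.7 ± 2.83 to 282.8 ± 77.8 CPM), Rpl6 by 2.12 and Rpl11 by 2.63, and these 3 were chosen for their sequence after the values were seen.

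**Figure D3:**
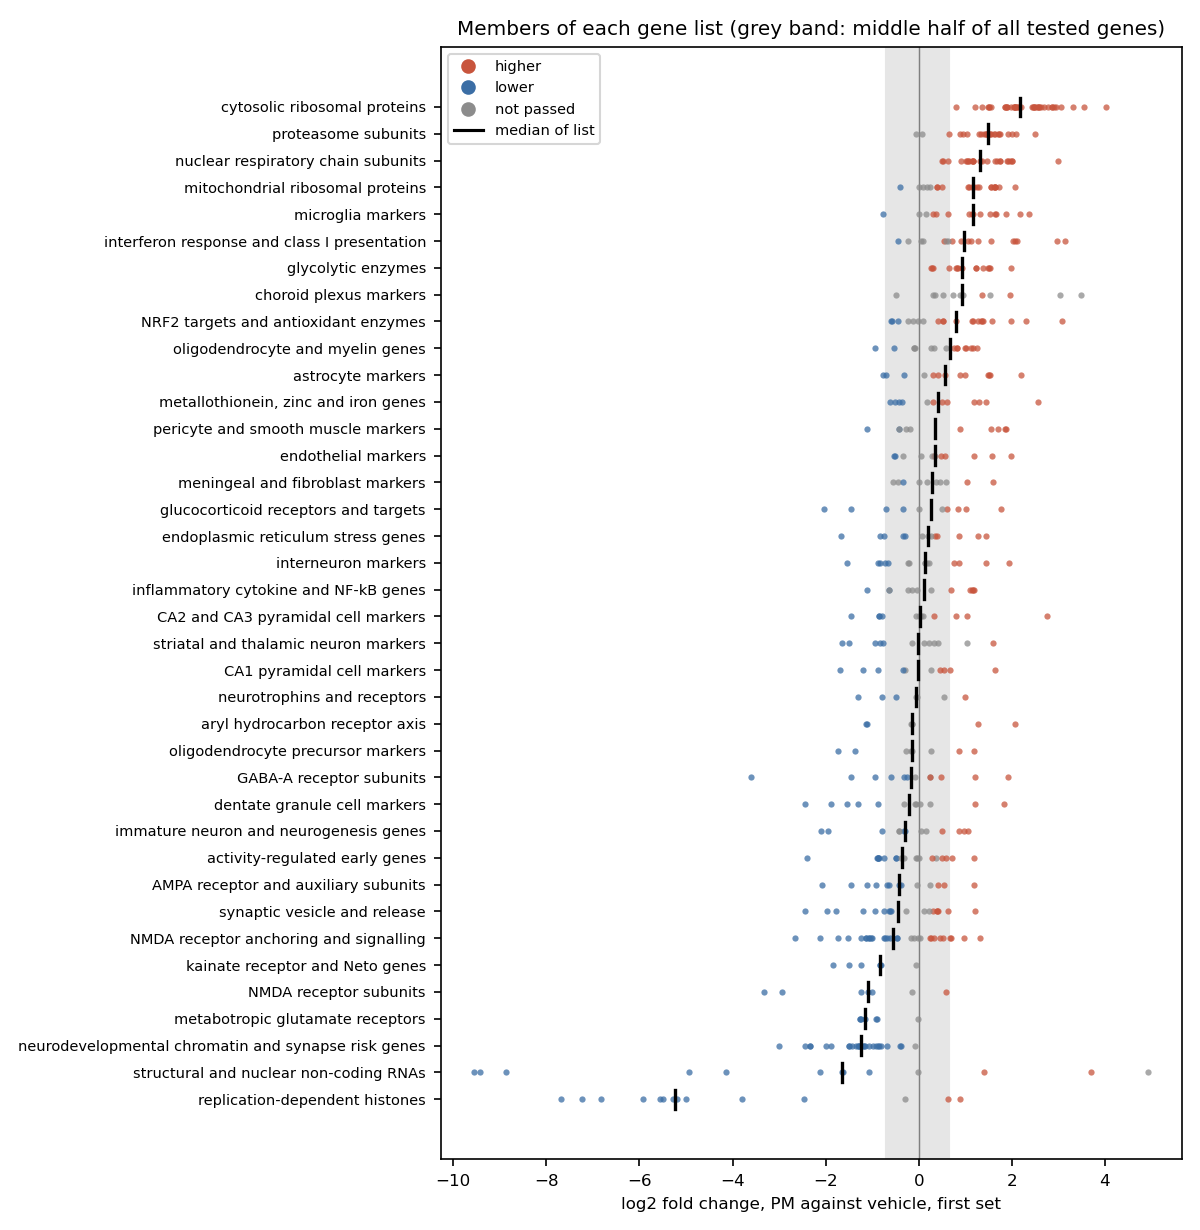
Log2 fold change, PM against vehicle, of each tested member (points) of the gene lists, coloured by whether it was called higher, called lower or did not pass, with a black bar at each list's median and a grey band over the middle part of all tested genes (-0.70 to 0.65). Ribosomal protein, proteasome and respiratory chain genes lie to the right of the band with medians of 2.18, 1.49 and 1.32, and NMDA receptor subunits, risk genes and histones to its left with medians of -1.09, -1.23 and -5.24.

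Among protein-coding genes with a mean of 10 CPM or more and groups that did not overlap, the rises were led by Lars2 (chr9:123366927-123462666), which encodes the mitochondrial leucyl-tRNA synthetase. It was at 13.3, 15.9 and 12.7 CPM in the vehicle libraries and at 6530, 6177 and 9174 CPM in the PM libraries, a rise of 9.03 (SE 0.206, edgeR adjusted p = 1.143e-09). The lowest PM library lay far above the highest vehicle library. PM replicate 3 was the highest library for Lars2, as it was for Rn45s and the miRNA precursor row Mir6236. Whether the reads of this row come from Lars2 messages was not tested. Apart from Lars2, the largest rises among these genes included Rps14, Rps27a, Rpl9, Rpl13a, Rps29, Rps3a1 and Atp5e, with rises from 2.93 to 4.03. Others were Fam213b (3.86), the fatty acid carrier Fabp5 (3.11) and Igfbp2 (3.01), which binds insulin-like growth factors. Igfbp2 was at 6.83, 7.34 and 4.23 CPM in the vehicle libraries and at 49.7, 27.8 and 71.3 CPM in the PM libraries. Its PM libraries had the same order as those of the choroid plexus gene Ttr (1138, 23.6 and 2419 CPM), with replicate 2 lowest and replicate 3 highest, and the part of this in its rise was not tested.

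Rn45s rose by 3.70 (SE 0.538, edgeR adjusted p = 0.002055), from 11818 ± 7622 to 153884 ± 32185 CPM. The miRNA precursor row Mir6236 (chr9:110281287-110281409) was at 0, 2.95 and 0.508 CPM in the vehicle libraries, 41 counts in all, and at 714, 635 and 1324 CPM in the PM libraries, a rise of 9.64 (SE 0.881, edgeR adjusted p = 0.000302). Mir703, another of the 4 miRNA rows that rose, went from 0.416 ± 0.235 to 3.90 ± 0.972 CPM, a rise of 3.23 (SE 0.4, edgeR adjusted p = 2.402e-05). Their mature sequences are shown because a row of this kind counts any read over its precursor. Capitals mark the seed, bases 2 to 8, and the sequences and the build GRCm38 are from RefSeq.
miR-6236, chr9:110281353-110281371, plus strand: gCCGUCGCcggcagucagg
miR-703, chr5:98475616-98475636, minus strand: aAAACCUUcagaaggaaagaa
The 2 miRNAs do not share a seed. The mature miR-703 sequence was also found in transcripts of 4 other annotated genes, among them the abundant translation elongation factor Eef1a1, and the Mir703 hairpin of 109 bases shares a run of 47 bases with Eef1a1. Reads of the 2 genes can therefore be shared, and the value of Mir703 is uncertain.

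Among the largest falls were those of short structural RNAs without a poly(A) tail. Rpph1, which encodes the RNA part of RNase P, was at 1154, 1750 and 1185 CPM in the vehicle libraries and at 1.57, 1.19 and 2.81 CPM in the PM libraries and fell by 9.55 (SE 0.291, edgeR adjusted p = 6.969e-09). Rmrp, its counterpart in RNase MRP, went from 652.7 ± 55.1 to 0.974 ± 0.677 CPM, and Scarna13, which guides modification of spliceosomal RNA, from 63.4 ± 9.45 to 0.132 ± 0.0790 CPM. The PM values of Scarna13 rest on 6 counts over the 3 libraries. Malat1, a nuclear RNA without a poly(A) tail of the usual kind, was at 19651, 22257 and 20423 CPM against 1694, 940 and 921 CPM, and fell by 4.13 (SE 0.223, edgeR adjusted p = 1.343e-07). Meg3, an imprinted nuclear RNA chosen after its values were seen, fell by 2.12, and did not pass after length and GC correction (-0.65, edgeR adjusted p = 0.06248).

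Replication-dependent histone messages, which end in a stem-loop in place of a poly(A) tail, fell with them. Of 14 tested, 11 fell, 2 rose and 1 did not pass, with a median of -5.24. Hist1h4d was at 63.5, 48.7 and 62.3 CPM in the vehicle libraries and at 0.0603, 0.356 and 0.432 CPM in the PM libraries and fell by 7.68 (SE 0.273, edgeR adjusted p = 1.568e-08). The linker histone gene Hist1h1e fell by 5.55. The 2 that rose, Hist1h2bc (0.88) and Hist3h2a (0.63), were named after their values were seen. The highly similar copies of histone genes make single rows uncertain.

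Among protein-coding genes outside the histones, the falls were led by Lrtm1 (log2 fold change -6.69), Cdr1 (-4.95), Rtl1 (-4.66), the meiotic gene Sycp2 (-4.6) and Il1rapl1 (-4.05), a synaptic organiser linked to X-linked intellectual disability. Lrtm1 lies within Cacna2d3 on the other strand, Cdr1 within the non-coding gene C230004F18Rik, and Rtl1 overlaps 6 miRNA precursors on the other strand, so the reads behind these 3 rows cannot be assigned to a strand here. Erbb4, a neuregulin receptor of interneurons, was at 71.1, 63.9 and 73.9 CPM in the vehicle libraries and at 5.19, 4.92 and 2.67 CPM in the PM libraries and fell by 4.01 (SE 0.189, edgeR adjusted p = 7.542e-08). Of all 181 genes named, 75 overlap an annotated gene on the other strand.

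**Figure D4:**
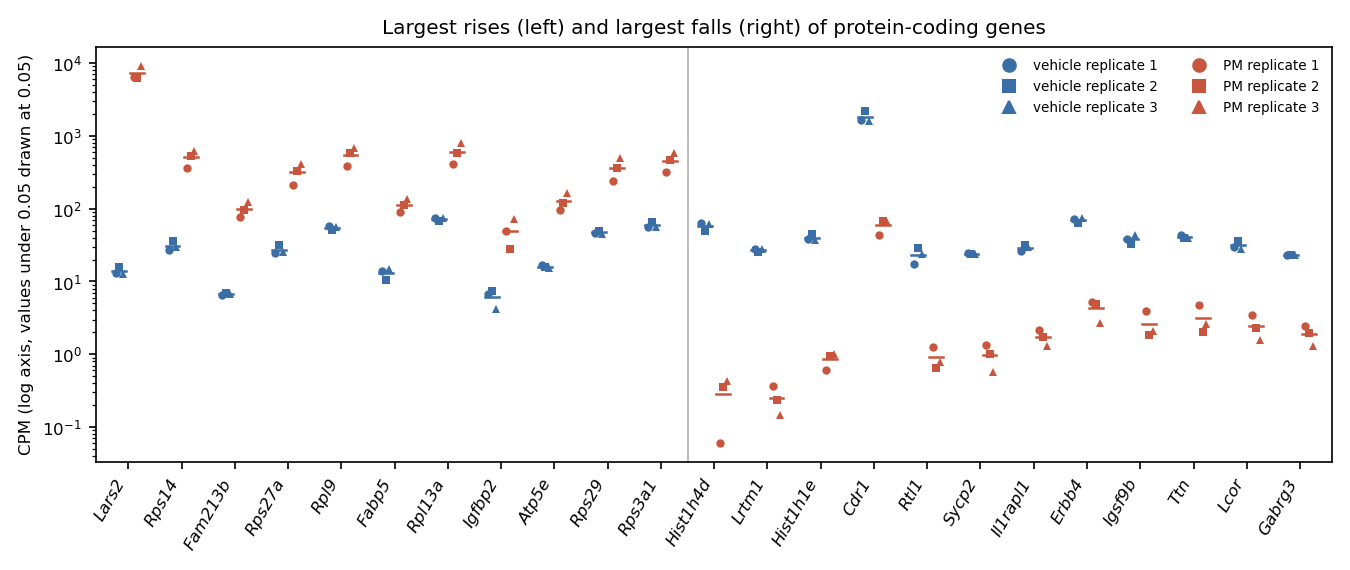
CPM (log axis, values under 0.05 drawn at 0.05) of 11 protein-coding genes with the largest rises (left) and 12 with the largest falls (right), with 1 point per library, vehicle in blue and PM in red, and a line at the mean of 3. For each gene the 3 PM points and the 3 vehicle points lie apart, from Lars2 with means of 13.9 and 7293 CPM to Gabrg3 with means of 23.3 and 1.89 CPM.

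Markers of resident cell types were measured as a check of the tissue and for their own changes. The marker lists of dentate granule cells (12 genes), CA1 (10 genes) and CA2 or CA3 pyramidal cells (12 genes) all passed the filter on low counts, so the defining genes of hippocampal neurons were measured in these libraries. Their members went both ways in shares near the background, with 2 higher and 5 lower in the dentate list, 4 and 4 in CA1 (2 and 4 without vehicle replicate 1), and 4 and 4 in CA2 or CA3. With the length and GC correction the dentate list had 6 higher and 5 lower, its median moving from -0.21 to 0.19, and CA1 had 2 higher and 4 lower. Prox1, the fate gene of granule cells, fell by 1.89 (146.7 ± 13.8 to 39.6 ± 7.11 CPM), while C1ql2, a secreted synaptic protein of their mossy fibres, rose by 1.2 (44.4 ± 3.19 to 102.0 ± 7.47 CPM). Spink8 of CA1 rose by 1.64 and Bok of CA3 by 2.75. In a bulk sample, fewer cells of a type and less RNA per cell cannot be told apart. The part of the difference in library composition in these values was not tested.

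Interneuron markers counted 4 higher, 5 lower and 6 not passed of 15, near the 34.9% higher and 35% lower among all genes. Reln fell by 1.53 (108.5 ± 7.76 to 37.5 ± 1.59 CPM), Cnr1 by 0.88 and Gad2, a GABA-producing enzyme, by 0.84, and Pvalb rose by 1.93 (12.3 ± 3.30 to 47.0 ± 14.9 CPM). Gad2 did not pass after length and GC correction (-0.19, edgeR adjusted p = 0.07091). Among immature neuron genes 5 of 13 fell and 4 rose, also near the shares of all genes. Dcx, the doublecortin gene of newborn neurons, was at 59.4, 58.6 and 59.5 CPM in the vehicle libraries and at 15.5, 13.9 and 16.8 CPM in the PM libraries and fell by 1.94 (SE 0.107, edgeR adjusted p = 1.311e-07). Mki67, a gene of dividing cells, fell by 2.09, and Tubb3, a neuronal tubulin, rose by 1.07.

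Most microglia markers rose. Of 16 measured, 13 rose, 1 fell and 2 did not pass, against 34.9% higher among all genes, with a median of 1.16. C1qa, a chain of the first complement component, was at 12.2, 9.03 and 11.4 CPM in the vehicle libraries and at 52.2, 57.0 and 60.9 CPM in the PM libraries, a rise of 2.38 (SE 0.132, edgeR adjusted p = 1.343e-07). C1qb and C1qc rose by 1.67 and 1.63. The 1 member that fell, named after its values were seen, was Sall1, a transcription factor of microglial identity (log2 fold change -0.76).

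Astrocyte markers counted 9 higher, 3 lower and 1 not passed of 13, against 34.9% higher and 35% lower among all genes. Their median was 0.56. Gfap, the intermediate filament of astrocytes, was at 213, 172 and 202 CPM in the vehicle libraries and at 471, 623 and 565 CPM in the PM libraries, a rise of 1.5 (SE 0.125, edgeR adjusted p = 1.286e-06). It lies within the non-coding gene Gm26668 on the other strand. S100b, a calcium-binding protein, rose by 2.20, and Aldh1l1 and Aldoc, metabolic enzymes of astrocytes, rose by 1.53 and 1.51. The 3 that fell, named after their values were seen, were the glutamate transporter gene Slc1a2 (-0.69), Slc4a4 (-0.76) and Sox9 (-0.31). After length and GC correction, Slc1a2 was at 0.72 and Slc4a4 at 0.25, both rises past the threshold, Sox9 did not pass (-0.17, edgeR adjusted p = 0.07274), and the list had 12 higher and none lower.

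Myelin and oligodendrocyte genes counted 8 higher, 2 lower and 6 not passed of 16, against 34.9% higher and 35% lower among all genes. Their median was 0.68. Cnp, a myelin enzyme, was at 143, 166 and 130 CPM in the vehicle libraries and at 216, 364 and 406 CPM in the PM libraries, a rise of 1.16 (SE 0.196, edgeR adjusted p = 0.0002475). Trf (transferrin) and Mag, an adhesion protein of myelin, rose by 1.12 and 0.83. Mbp, chosen after its values were seen, was at 1859, 1952 and 1697 CPM against 2056, 3829 and 5341 CPM and rose by 1.03 (SE 0.289, edgeR adjusted p = 0.01217), without passing when no filter on low counts was used (1.05, edgeR adjusted p = 0.06784). For Cnp, Trf, Mag and Mbp, PM replicate 1 was the lowest and PM replicate 3 the highest PM library. The 2 that fell were Myrf, the transcription factor that drives myelination (-0.94), and Ugt8a (-0.53), the latter with overlapping groups, named after its values were seen, and not passed after the correction (-0.26, edgeR adjusted p = 0.2317). Of 8 precursor markers 2 rose and 2 fell (4 and 2 after the correction), with Vcan and Ptprz1, matrix genes with long transcripts, at -1.74 and -1.38.

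Endothelial markers counted 6 higher and 2 lower of 12, against 34.9% higher and 35% lower among all genes. Pericyte and smooth muscle markers counted 5 higher and 2 lower of 10 (5 lower without PM replicate 1). Log2 fold changes ran from -0.525 to 1.987 in the endothelial list and from -1.11 to 1.881 in the other. The members named here all rose. Cldn5, the tight junction gene of the blood-brain barrier, rose by 1.99 (12.2 ± 1.47 to 48.3 ± 7.88 CPM) and Itm2a by 1.57. The actin-binding gene Tagln rose by 1.88 and Myh11, a smooth muscle myosin, by 1.70. Choroid plexus markers summed to between 207.9 and 660.8 CPM in the vehicle libraries and between 203.6 and 3284 CPM in the PM libraries, and the groups overlapped for all 12. Folr1 and Calml4 passed narrowly (edgeR adjusted p = 0.04648 and 0.04583), and neither passed without PM replicate 3. With the length and GC correction Folr1 was at 1.44 and Calml4 at 0.99 (edgeR adjusted p = 0.1886 and 0.1728). Without PM replicate 2, the PM library lowest in Ttr, 6 of the 12 were called higher. Meningeal markers counted 2 higher, 1 lower and 7 not passed of 10.

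Of markers from outside the hippocampus, pituitary genes summed to at most 21.75 CPM per library and blood cell genes to at most 23 CPM. Striatal and thalamic markers were not as low, with sums of 187 to 190.1 CPM in the vehicle and 118.5 to 150.2 CPM in the PM libraries. Growth hormone, Gh, was at 0.371, 0.0844 and 0 CPM in the vehicle libraries and at 5.07, 6.58 and 5.26 CPM in the PM libraries, a rise of 5.06 (SE 0.464, edgeR adjusted p = 2.589e-06) on 6 and 268 counts. Pomc rose by 1.72 (0.973 ± 0.112 to 3.26 ± 1.76 CPM), and Tshb, which lies within Tspan2 on the other strand, fell by 2.33. Prl was at 0 in each vehicle library and at 0.241, 0.534 and 10.4 CPM in the PM libraries, and 6 of the 9 pituitary genes, Prl included, did not reach the filter. In the striatal and thalamic list 1 was higher and 5 lower of 12, against 34.9% and 35% among all genes, with the thalamic gene Tcf7l2 at -1.5. Of 12 blood cell markers only Alas2 and Ptprc could be tested. Alas2, which lies within Apex2 on the other strand, fell by 1.64 (15.3 ± 1.49 to 5.00 ± 3.56 CPM), without passing when PM replicate 1 was left out. The globin rows are listed at 0 in all 6 libraries, as is that of the glycolytic enzyme Eno1.

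Airborne PM can carry metals and polycyclic hydrocarbons, and the genes known to respond to these were examined as lists. NRF2 targets and antioxidant enzymes counted 14 higher, 3 lower and 4 not passed of 21, with a median of 0.80. Among all genes 34.9% were higher and 35% lower, and a link of these lists to the content of PM was not tested. Ccs, the copper chaperone of superoxide dismutase, was at 2.08, 2.02 and 2.12 CPM in the vehicle libraries and at 17.2, 17.3 and 18.4 CPM in the PM libraries, a rise of 3.08 (SE 0.153, edgeR adjusted p = 1.004e-07). Gpx4, which removes lipid peroxides, rose by 2.31 (51.2 ± 1.897 to 252.9 ± 70.4 CPM), Keap1, the inhibitor of NRF2, by 1.37 and the glutathione transferase gene Gsta4 by 1.16. The 3 that fell, named after their values were seen, were Slc7a11 (-0.60), the mitochondrial enzyme Sod2 (-0.58) and Gclc (-0.46), a glutathione synthesis enzyme. Slc7a11 was at 0.65 and Sod2 at 0.12 after length and GC correction.

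Metallothionein, zinc and iron genes counted 7 higher and 4 lower of 12 (8 and 2 after length and GC correction), against 34.9% higher and 35% lower among all genes. Their median was 0.41. The ferritin chains Ftl1 and Fth1 rose by 2.56 and 1.45, and the metallothioneins Mt2 and Mt3 by 1.30 (84.4 ± 1.83 to 207.8 ± 51.3 CPM) and 1.18. On the aryl hydrocarbon receptor axis, which senses polycyclic hydrocarbons, 2 of 7 tested genes rose, 2 fell and 3 did not pass. The receptor and its partner were the 2 that fell, Ahr by 1.13 (17.5 ± 1.55 to 8.02 ± 0.499 CPM) and Arnt by 1.12 (52.8 ± 0.430 to 24.2 ± 3.99 CPM). Its target Nqo1 rose by 1.27 with overlapping groups and did not pass without vehicle replicate 2 (edgeR adjusted p = 0.05668). Cyp1a1, the main target in most tissues, had 3 counts over the vehicle libraries and 3 over the PM libraries and could not be tested.

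Interferon response and class I presentation genes counted 12 higher, 1 lower and 5 not passed of 18, against 34.9% higher among all genes, with a median of 0.98. H2-K1, a class I heavy chain, was at 6.53, 7.09 and 5.16 CPM in the vehicle libraries and at 26.5, 26.4 and 26.4 CPM in the PM libraries, a rise of 2.08 (SE 0.137, edgeR adjusted p = 3.131e-07). Psmb8, an immunoproteasome subunit, and Bst2 (tetherin) rose by 3.15 and 2.98 on 16 and 21 counts over the vehicle libraries, and Ifi27 rose by 2.02. The 1 member that fell, named after its values were seen, was Stat2 (-0.45). Of 18 inflammatory cytokine and NF-kB genes, 6 did not reach the filter, among them Il1b, Il6, Tnf and Ccl2, each with 7 counts or fewer in either group. Of the 12 tested, 5 rose, 2 fell and 5 did not pass. Nfkbia, the inhibitor of NF-kB, rose by 1.15 and the adaptor Myd88 by 1.19, and Ptgs2 (cyclooxygenase 2) fell by 1.11 (42.0 ± 4.89 to 19.4 ± 3.65 CPM).

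Endoplasmic reticulum stress genes were split, with 5 higher, 5 lower and 3 not passed of 13 (4 higher and 2 lower after length and GC correction). The uncorrected shares lie near those of all genes, 34.9% higher and 35% lower. The chaperone gene Hspa5 (BiP) was at 99.9, 113 and 84.8 CPM in the vehicle libraries and at 234, 250 and 234 CPM in the PM libraries, a rise of 1.27 (SE 0.114, edgeR adjusted p = 2.16e-06). Ddit3 (CHOP) rose by 1.45, and the sensors Ern1 (-1.68) and Atf6 (-0.75) fell, with Atf6 at 0.15 after length and GC correction. Glucocorticoid receptor genes and targets counted 4 higher and 4 lower of 10, also near the shares of all genes. Nr3c2, the mineralocorticoid receptor, fell by 1.45 (277.2 ± 15.0 to 101.7 ± 12.0 CPM) and Zbtb16, a glucocorticoid-induced zinc finger gene, by 2.02 (130.6 ± 2.88 to 32.1 ± 7.56 CPM). Hsd11b1, which regenerates active glucocorticoid and lies within Lamb3 on the other strand, rose by 1.77 and Tsc22d3 (GILZ) by 1.01.

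To see which of these effects differed between the sets, the PM effect in the second set minus that in the first was tested in a joint fit of the 11 libraries. Of 15713 genes, 2157 (13.7%) had a higher effect in the second set and 2694 (17.1%) a lower one, 30.9% in either direction. The split depended on the filter: with genes kept by treatment group alone, an alternative added after seeing the data, 2618 were higher and 1810 lower, which moves the share of higher calls from 44.5% to 59.1%, and without vehicle replicate 2 it was 56.3%. Without vehicle replicate 5, 1353 were higher and 1448 lower. The labels do not give the sex of the animals, and Y-linked and Xist counts were mixed within the PM group of the second set. Uty, Kdm5d, Eif2s3y and Ddx3y had 0 counts in both of its vehicle libraries and in PM replicate 6, and 137 to 969 counts in PM replicates 4 and 5. Xist had 14819 and 20726 counts in those vehicle libraries, 10382 in PM replicate 6, and 9 and 8 in PM replicates 4 and 5. In an alternative added after seeing the data, only PM libraries with the Y-linked pattern of their own vehicle libraries were kept, which left PM replicates 1 and 2 in the first set and PM replicate 6, a lone library assumed to vary like the others, in the second. There 1420 genes were higher and 1631 lower. Of the 70 named genes whose effect differed with all libraries, all kept their direction in it and 50 passed. The 20 that did not pass were Lars2, Rps14, Igfbp2, Grin2c, Grm5, Glis3, Aldoc, Myrf, Folr1, Atf6, Ldha, Psmd2, Psmc5, Scarna13, Kmt2c, Rn45s, Mir6236, Hist3h2a, Fmr1 and Ugt8a. Since Y-linked reads were then present in every first-set library and absent from the second set, sex and set cannot be told apart there. Age within the stated range, litter and library handling cannot be told apart from the set.

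Several synaptic and neuronal genes had a large effect in the first set and little in the second. Shank1 changed by -2.65 in the first set and by -0.25 in the second, a difference of 2.40 (SE 0.200, edgeR adjusted p = 9.432e-06). Npas4 changed by -2.38 and -0.29 (difference 2.09, SE 0.250, edgeR adjusted p = 5.923e-05), and the subunit Grin1 by -0.99 and -0.05 (difference 0.95, SE 0.207, edgeR adjusted p = 0.00338). Shank3, chosen after its values were seen, changed by -1.05 and 0.06. Of the NMDA receptor subunits Grin2c also differed, with the larger rise in the second set (0.60 and 1.22), and the other five did not pass. Grin2a changed by -3.32 and -3.48, a difference of -0.16 (SE 0.327, edgeR adjusted p = 0.7447), and Grin2b by -2.92 and -2.40, a difference of 0.52 (SE 0.242, edgeR adjusted p = 0.1168). After length and GC correction in the same fit the difference of Grin2b passed (edgeR adjusted p = 0.04652) and that of Grin2c did not (edgeR adjusted p = 0.1744).

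**Figure D5:**
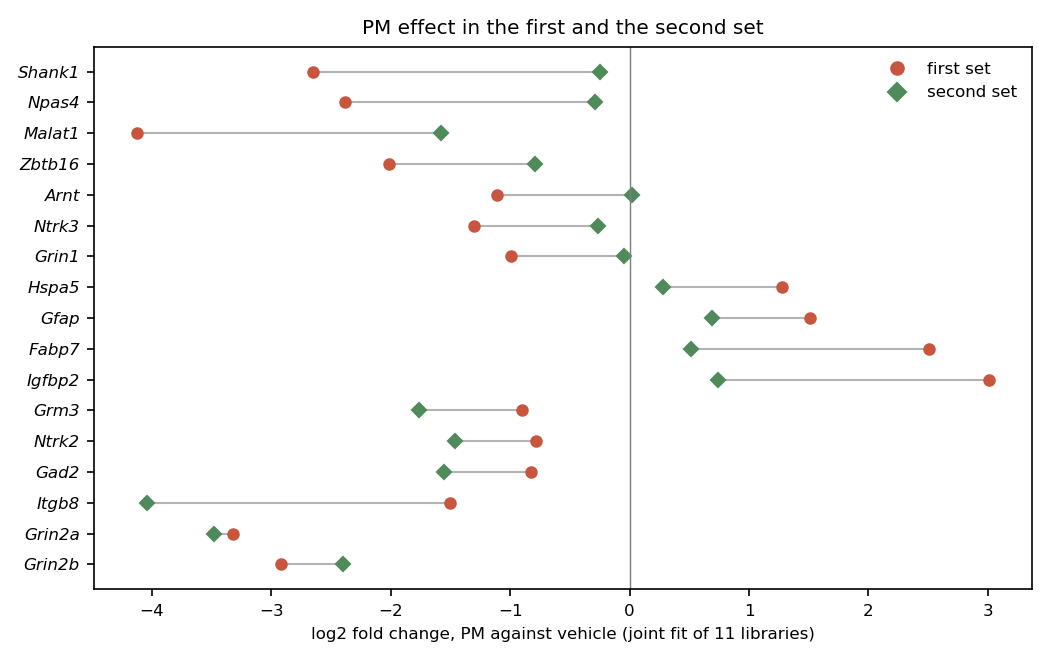
Log2 fold change, PM against vehicle, in the first set (red circles) and in the second set (green diamonds) from the joint fit of 11 libraries, for genes of the text, with a grey line joining the 2 values of a gene. The values of Shank1 lie far apart (-2.65 and -0.25), as do those of Npas4, Malat1 and Fabp7, and the values of Grin2a lie close together (-3.32 and -3.48).

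Other genes with a larger effect in the first set were glial, metabolic or nuclear. Fabp7, a fatty acid carrier of radial glia and astrocytes, changed by 2.51 and 0.51, a difference of -1.99 (edgeR adjusted p = 0.000559). Its CPM on the joint scale was 13.8, 12.1 and 13.8 in the vehicle and 54.2, 83.4 and 88.5 in the PM libraries of the first set, against 16.7 and 17.1 in the vehicle and 26.9, 17.6 and 28.1 in the PM libraries of the second. Gfap changed by 1.51 and 0.69, Hspa5 by 1.28 and 0.28, Arnt by -1.11 and 0.02, and Malat1 by -4.12 and -1.58. The short structural RNAs fell further in the first set, with Rmrp at -9.42 and -5.61 and Rpph1 at -9.54 and -6.31. A wide difference was that of Mir6236 (9.64 and 2.53, difference -7.11, SE 1.19), whose vehicle libraries were at 0, 3.08 and 0.529 CPM in the first set and at 100 and 25.6 CPM in the second.

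Other genes had a lower effect in the second set without a rise past the threshold in the first. Itgb8, an integrin subunit that activates TGF-beta, changed by -1.5 in the first set and by -4.04 in the second (difference -2.54, edgeR adjusted p = 4.092e-05). Its PM libraries were at 15.8, 13.9 and 9.94 CPM in the first set and at 2.63, 1.87 and 3.64 CPM in the second, without overlap. Nptxr, a receptor of neuronal pentraxins, changed by 0.08 and -1.91, and Vat1l by 0.14 and -1.63. Slc1a2, the glial glutamate transporter, changed by -0.69 and -1.62.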

How the data were processed

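The deposited files hold raw read counts per gene symbol, which the authors made with HTSeq 0.9.1 from STAR alignments after Trimmomatic 0.36, with SAMtools 1.9, Picard 2.9.2 and FastQC 0.11.9 also named, per the submitters' processing notes. Those notes name the builds mm10 and hg19, and no source used here gives the annotation behind the counts. Rows that name no gene were left out of library sizes and tests, and their shares are in the report. No column of per-sample values was left out.

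The 6 libraries of the first set were fitted alone with edgeR 4.0.16 (limma 3.58.1, R 4.3.3): filterByExpr with a minimum count of 10, TMM scaling, robust quasi-likelihood test, Benjamini-Hochberg adjustment over all genes tested and a threshold of 0.05. The difference between sets came from a joint fit of all 11 libraries with 4 groups. The scripts were checked on simulated data. Vehicle replicates 1 and 3 differed by a chi-square of 2.01 per degree of freedom over genes, against 12.6 to 43 for the other pairs of a group. That is more than sampling noise, so they were kept as 2 libraries. The value cannot tell separate animals from separate libraries of the same sample. With the pair summed, 4867 genes were higher and 4971 lower. Alternatives were DESeq2 1.42.0, its size factors, no filter, each library left out, the replicate block, library sizes from protein-coding rows, vehicle replicates 1 and 3 summed, and a length and GC correction by splines with 5 degrees of freedom. Lengths (of the longest transcript), types and positions came from GENCODE M21 on GRCm38, to which 98.5% of 24421 symbols matched, 678 of them through a RefSeq synonym.

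Genes named are the 12 protein-coding genes with the largest rises and the 12 with the largest falls (mean CPM of 10 or more, groups apart), the NMDA receptor subunits, up to 4 members per gene list with the smallest p, the sex-linked genes, the most abundant rows and the 8 largest differences between sets in each direction. A further 20 genes were chosen after their values were seen. The members and lists were chosen with earlier results of these data known. Some genes that these rules name are not reported here.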

Additional observations from a re-analysis of the deposited data

Results flagged for a closer look

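Of 176 named genes compared, 70 had a PM effect that differed between the 2 sets by the interaction test of the joint edgeR fit (adjusted p under the threshold), 26 positive and 44 negative. The values in parentheses are the effect in the second set minus that in the first, on the log2 scale. A positive value beside a gene that fell in the first set means a smaller fall, no fall or a rise in the second. Stat2, for example, changed by -0.44 in the first set and by 1.04 in the second. Over all 15713 genes 30.9% differed, and without vehicle replicate 5 the number of genes that differed was smaller by more than 1.5 times, with 1353 higher and 1448 lower. The groups of genes below are for reading only and were not tested as groups.

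Among synaptic and neuronal genes the values were Shank1 (2.4), Npas4 (2.09), Shank3 (1.11), Ntrk3 (1.04), Grin1 (0.95), Glis3 (0.72) and Grin2c (0.62) in the positive direction. The negative ones were Gad2 (-0.72), Ntrk2 (-0.67), Nr3c2 (-0.55), Grm5 (-0.5), Dlg2 (-0.46), Nptxr (-2) and Vat1l (-1.77). Genes of chromatin, translation control and signalling gave Zbtb16 (1.22), Arnt (1.13), Stat2 (1.49) and Kmt2c (0.5) as positive and Fmr1 (-0.55) as a negative value.

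Nuclear and structural RNAs and the rows of long non-coding RNAs had positive values, Tbrg3 (3.66), 4921534H16Rik (3.43), 9530091C08Rik (3.06), Lincpint (2.88), Rmrp (3.81), Rpph1 (3.23), Malat1 (2.55), Meg3 (2.33) and Scarna13 (1.99). So did some of the genes with the largest falls, Rtl1 (2.87), Lrtm1 (2.59), Muc6 (3.17), Sycp2 (1.77) and Hist2h4 (1.45). The other two histone genes that differed, Hist1h2bc (-0.79) and Hist3h2a (-0.74), had risen in the first set. Mir6236 had a negative value (-7.11), and the 45S precursor row Rn45s (-2.33) also differed, though its adjusted p was between 0.05112 and 0.1079 under 11 of its alternatives. With only PM libraries of the Y-linked pattern of their own vehicle libraries, the value of Rn45s was -1.59. Folate receptor gene Folr1, a choroid plexus marker whose groups overlapped in the first set, had -5.65.

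Genes of translation and energy supply that rose in the first set had smaller effects in the second: Rps27a (-1.26), Rps3a1 (-1.23), Rps14 (-0.94), Mrpl9 (-0.9), Rpl9 (-0.87) and Rpl3 (-0.62) for translation and Sdha (-0.76), Pgk1 (-0.68), Ndufv1 (-0.5), Ldha (-0.47), Tpi1 (-0.44), Psmc5 (-0.43) and Psmd2 (-0.41) for metabolism and the proteasome. The Lars2 row, for which the source of the reads was not tested, had -2.68. Glial and stress genes gave Fabp7 (-1.99), Gfap (-0.82), S100b (-0.66), Aldoc (-0.43), Hspa5 (-0.99), Tsc22d3 (-0.61) and Mt3 (-0.61). Igfbp2 (-2.27) and the meningeal marker Lum (-1.62) had also risen in the first set. The value of Igfbp2 did not pass without vehicle replicate 5 (-1.73, edgeR adjusted p = 0.1218). Glial genes that had fallen had lower effects in the second set, Itgb8 (-2.54), Ugt8a (-1.06), Slc1a2 (-0.93), Slc4a4 (-0.8) and Ptprz1 (-0.78), as did Slc7a11 (-1.26), Sod2 (-0.58) and Atf6 (-0.38), whereas the myelin factor gene Myrf had 0.76.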

How the results depend on the processing

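The counts of genes higher and lower in the first set were within 1.5 times the reported counts under every alternative run. Leaving out 1 library gave 4749 to 5469 higher and 4807 to 5534 lower. DESeq2 gave 4939 and 5133, no filter 5456 and 5727, and length and GC correction 5730 and 4321, which moved the share of higher calls from 49.9% to 57% and the median of all genes from 0.007 to 0.098. Same-numbered libraries did not deviate together (correlations of -0.002, -0.039 and -0.118), and with the replicate number as a block 5121 genes were higher and 5148 lower, 10152 calls being shared. Under the block 1 of 172 named genes, Folr1, no longer passed. Length and GC correction reversed 12 of 171 named genes: Gabrb1 (0.18), Ntrk3 (0.58), Ntrk2 (0.26), Atf6 (0.15), Ddx3y (0.47), Gria1 (0.10), Gria2 (0.80), Sod2 (0.12), Slc7a11 (0.65), Fmr1 (0.31), Slc1a2 (0.72) and Slc4a4 (0.25). It ended the call of 13 others, and the cause was not tested. Without PM replicate 3 the value of Ddx3y was 0.54, and without PM replicate 2 it was -0.52. For the difference between sets, leaving out 1 library gave 1353 to 2658 genes higher and 1448 to 3324 lower, the fewest without vehicle replicate 5 and the most without PM replicate 1. With only PM libraries that shared the Y-linked pattern of their own vehicle libraries, an alternative added after seeing the data, 1420 were higher and 1631 lower. The difference in the share of counts in no feature ranged from -41.48 to -40.16 percentage points with 1 library left out. Depth limits single rows: Cyp1a1, Il1b, Il6, Tnf and Ccl2 had too few counts for a test.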
